A study of Saccharomyces cerevisiae with 17 samples.

Results

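The allantoin and nitrogen catabolite repression genes are 10 genes of Saccharomyces cerevisiae that cells use to take up and break down poor nitrogen sources: DAL1, DAL2, DAL3, DAL4, DAL5, DAL7, DAL80, GZF3, DUR3 and GAP1. They were chosen by name, as a list of gene identifiers, after levels and fold changes of these same libraries had been seen, and are 10 of the 7126 features counted. All 10 were among the 6195 features that passed the filter on low counts. Because no record says which comparison led to the choice, every comparison of the 10 is given as a description, with the fold change and its error and without a p-value.

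All 17 libraries came from 1 MATa strain, BY25598, so Xrn1-AID and Xrn1-WT differ in auxin and not in genotype. In every group Xrn1, the cytoplasmic exonuclease that degrades decapped mRNA from its 5' end, carries an auxin-inducible degron (XRN1-AID, marked with HIS), and the plant receptor OsTIR1-9Myc is made from the ADH1 promoter at ura3-1 (marked with URA3). The strain also holds ade2-1 and can1-100, the histidine and tryptophan markers his3-11,15 and trp1-1, and a leucine marker. Xrn1-AID cells received 500 µM auxin for 30 min and Xrn1-WT cells received none, so effects of auxin itself and of Xrn1 loss cannot be told apart. The submitters describe a drop of Xrn1 protein to under 10% with that treatment. Cells were in log phase in the rich medium YPD at 30 °C and were collected without NaCl (0 min) or after 10 or 30 min of 0.4 M NaCl. There were 2 libraries of Xrn1-AID at 30 min and 3 of each of the other 5 groups. No label ties the replicates to separate cultures, so the errors may cover technical spread alone.

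Nitrogen catabolite repression keeps genes for poor nitrogen sources low while a preferred source such as glutamine or ammonium is at hand. The GATA-family activators Gln3 and Gat1 bind a GATAA core in the promoters of these genes, Ure2 retains Gln3 in the cytoplasm, and the GATA-family proteins Dal80 and Gzf3 repress. Allantoin, a breakdown product of purines, is converted to urea and glyoxylate by enzymes of the DAL genes, most of which lie side by side on chromosome IX.

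The sequences upstream of the coding regions are shown because the GATAA core is the element through which nitrogen catabolite repression is known to act. GATAA was searched on both strands, where its reverse complement reads TTATC, in the 300 bases before each coding start of the RefSeq R64 assembly (the sacCer3 build). Every one of the 10 held at least 1 match, which 61.6% of all 6001 such windows also did. DAL3 and DAL5 held 5 matches, a number that 0.617% of all windows reached, and DAL2, DAL7, DAL80 and GZF3 held 4, which 2.58% reached. DAL1, DUR3 and GAP1 held 2 (25.2% of all windows) and DAL4 held 1. The longer form GATAAG, which contains GATAA, occurred 5 times before DAL3 and in no other window as often (0.0167% of all windows), 3 times before DAL7, DAL80 and GZF3 (0.217%) and not before DAL1 or DUR3. The element AGGGG occurred only before DAL1 among the 10, with 2 matches (3.45% of all windows).

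The windows of GZF3, DAL7 and DAL5, whose log2 fold changes between the arms at their largest time exceeded those of the other 7 genes, are printed with those of DAL3 and DAL80, which hold as many matches, and with that of DCG1, whose level lay in the opposite direction. Capitals mark GATAA or TTATC and each sequence is written 5' to 3' on the strand of its gene. GZF3 was read from chrX:211578-211877 (minus strand), DAL7 from chrIX:414680-414979 (minus), DAL5 from chrX:719366-719665 (plus), DAL3 from chrIX:415618-415917 (minus), DAL80 from chrXI:506598-506897 (plus) and DCG1 from chrIX:412771-413070 (minus).
GZF3: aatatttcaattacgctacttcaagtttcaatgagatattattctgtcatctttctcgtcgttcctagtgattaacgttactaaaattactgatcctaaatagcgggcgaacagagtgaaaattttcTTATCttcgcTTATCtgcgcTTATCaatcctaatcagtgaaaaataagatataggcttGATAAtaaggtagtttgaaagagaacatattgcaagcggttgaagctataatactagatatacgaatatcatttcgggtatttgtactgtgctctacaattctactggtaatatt
DAL7: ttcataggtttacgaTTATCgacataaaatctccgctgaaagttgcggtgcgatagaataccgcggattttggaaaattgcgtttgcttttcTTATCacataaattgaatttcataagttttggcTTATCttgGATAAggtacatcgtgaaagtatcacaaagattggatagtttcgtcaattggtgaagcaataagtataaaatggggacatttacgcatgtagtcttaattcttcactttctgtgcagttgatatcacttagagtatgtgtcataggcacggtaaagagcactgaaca
DAL5: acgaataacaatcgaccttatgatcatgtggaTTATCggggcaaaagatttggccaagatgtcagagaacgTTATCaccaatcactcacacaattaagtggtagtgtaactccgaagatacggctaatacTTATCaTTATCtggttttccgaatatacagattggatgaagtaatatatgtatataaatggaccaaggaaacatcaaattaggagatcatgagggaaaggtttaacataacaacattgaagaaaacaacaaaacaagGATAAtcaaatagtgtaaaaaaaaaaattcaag
DAL3: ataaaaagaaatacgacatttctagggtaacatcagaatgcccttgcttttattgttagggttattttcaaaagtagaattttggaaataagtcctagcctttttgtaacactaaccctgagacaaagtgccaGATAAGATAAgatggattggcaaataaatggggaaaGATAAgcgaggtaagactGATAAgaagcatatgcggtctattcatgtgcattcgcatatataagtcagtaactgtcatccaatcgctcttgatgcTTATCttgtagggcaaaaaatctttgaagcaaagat
DAL80: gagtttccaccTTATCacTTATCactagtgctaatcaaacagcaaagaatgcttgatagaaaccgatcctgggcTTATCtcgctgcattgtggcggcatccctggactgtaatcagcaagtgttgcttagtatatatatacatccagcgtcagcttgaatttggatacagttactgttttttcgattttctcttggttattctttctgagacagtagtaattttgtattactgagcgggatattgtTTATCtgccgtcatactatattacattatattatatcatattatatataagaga
DCG1: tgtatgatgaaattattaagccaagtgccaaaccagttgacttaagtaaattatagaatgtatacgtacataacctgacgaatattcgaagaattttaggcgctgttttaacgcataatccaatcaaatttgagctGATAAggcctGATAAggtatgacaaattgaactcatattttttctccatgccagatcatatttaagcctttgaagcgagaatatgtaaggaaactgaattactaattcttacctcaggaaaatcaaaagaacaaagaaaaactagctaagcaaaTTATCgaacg
In GZF3, 3 TTATC matches followed each other with 5 bases between them, 168, 158 and 148 bases before the coding start. In DCG1, 2 GATAA matches with 5 bases between them lay 159 and 149 bases before it. Windows were not cut at neighbouring genes. That of DCG1 runs into the coding region of DAL7, from which DCG1 is separated by 244 bases. A match is a string of letters and not a measured binding site.

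Depth was 13.9 to 30.4 M counts per library, so that a count of 0 would allow up to 3 counts, or 0.104 to 0.279 counts per 1 M counts (CPM), with counting error only. XRN1 mRNA stood at 34.1 to 70.0 CPM in Xrn1-AID and at 12.2 to 47.6 CPM in Xrn1-WT over all times. At 0 min it had 64.7, 48.9 and 61.9 CPM in Xrn1-AID, against 24.4, 38.5 and 12.2 CPM in Xrn1-WT. It passed edgeR's quasi-likelihood test as higher in Xrn1-AID at 0 min (log2 fold change 1.23) and not at 10 min (0.51) or 30 min (0.36). The mRNA level says nothing of the protein, on which the degron acts. Markers of mating type a (MFA1, MFA2, STE2 and BAR1) summed to 168 to 744 CPM and those of mating type alpha to 0.484 to 1.80 CPM, as the MATa label has it. WT 0 min replicate 3 and WT 10 min replicate 2 stood farthest from their groups, by a root mean square of 0.494 and 0.419 in log2 CPM over all tested genes. WT 0 min replicate 1 had 17.9 CPM of STL1, a glycerol importer induced by osmotic stress, against 1.60 and 2.29 CPM in the other two. Levels below are CPM scaled by edgeR's trimmed mean of M-values (TMM), given as mean ± SD. A bulk library cannot tell fewer cells with a transcript from less of it in each cell.

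The order of levels is given per kb of coding length. In Xrn1-AID at 0 min GAP1, the general amino acid permease, stood highest at 184 ± 16.3 CPM per kb. It was followed by GZF3 (61.5 ± 0.528), DAL7 (58.9 ± 2.50) and DAL3 (58.5 ± 5.37), whose values overlapped within their SD. DAL2 (30.0 ± 5.05), DAL5 (21.1 ± 3.73), DUR3 (10.3 ± 0.953), DAL80 (3.54 ± 0.161), DAL1 (2.54 ± 0.135) and DAL4 (2.04 ± 0.444 CPM per kb) came next, and DAL1 and DAL4 overlapped within their SD. In Xrn1-WT at 0 min the order was GAP1 (124 ± 8.90), DAL3 (40.6 ± 21.5), DAL7 (23.9 ± 3.77), GZF3 (22.4 ± 3.30), DAL2 (14.8 ± 6.43), DAL5 (9.86 ± 1.40), DUR3 (4.35 ± 0.592), DAL80 (2.89 ± 0.695), DAL4 (1.60 ± 0.663) and DAL1 (1.42 ± 0.539 CPM per kb). There DAL3, DAL7, GZF3 and DAL2 did not differ beyond their SD, nor did DAL2 from DAL5, DAL80 from DAL4 or DAL4 from DAL1. DAL1, DAL4 and DAL80 were the rarest of the 10 in both arms at 0 min.

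**Figure D1:**
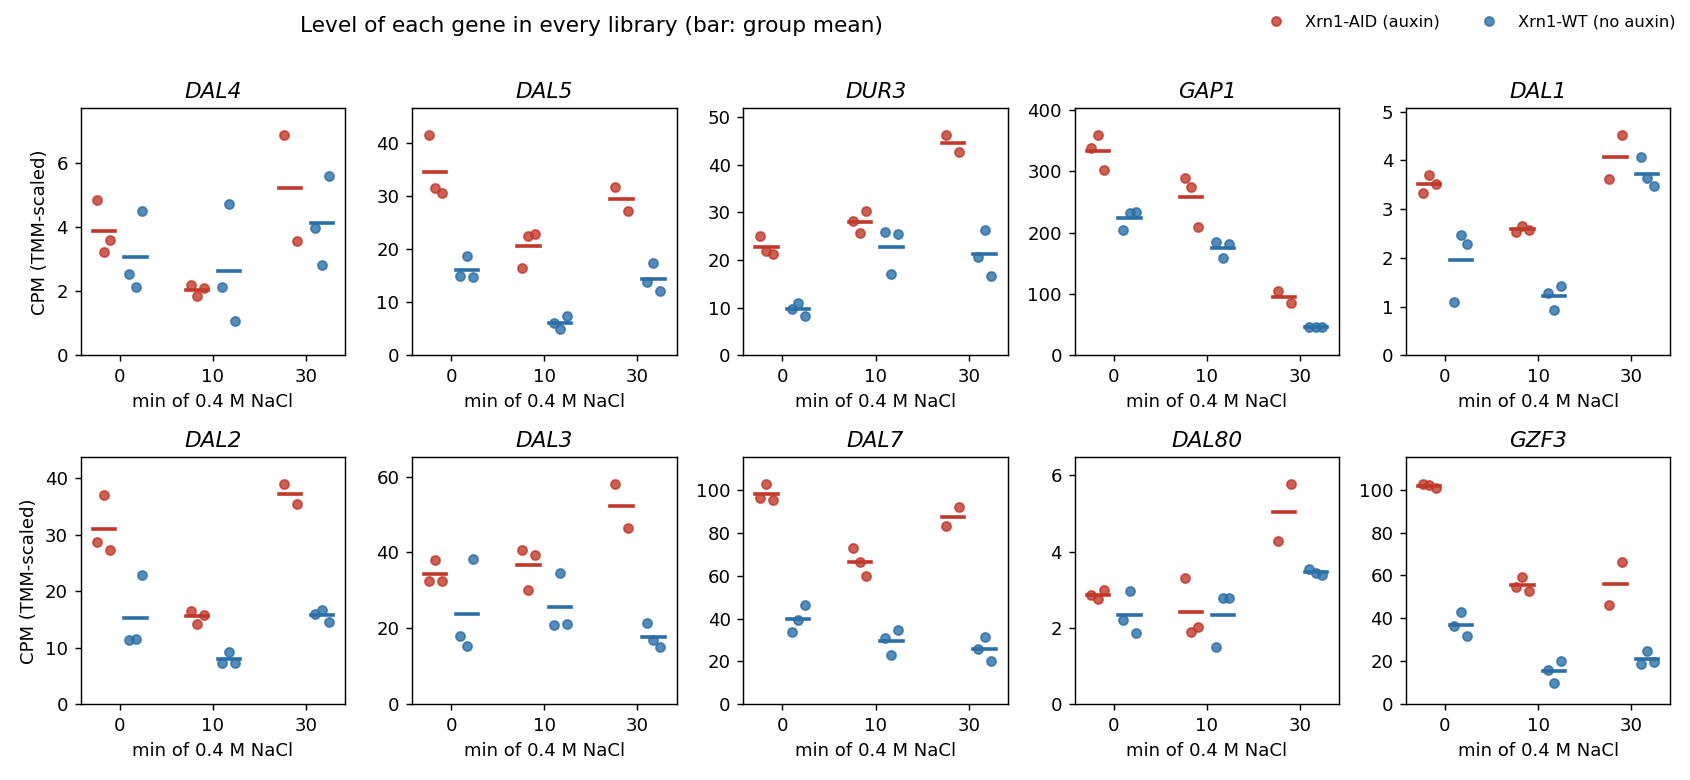
Level of each of the 10 genes (CPM scaled by TMM, linear axis from 0) in every library against min of NaCl, with Xrn1-AID left of Xrn1-WT at each time and a bar for the group mean. GZF3, DAL7 and DAL5 show Xrn1-AID points above all Xrn1-WT points of the same time, and GAP1 is lowest at 30 min in both arms.

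The first comparison set auxin-treated cells against untreated cells at the same time of NaCl. Before NaCl, 7 of the 10 genes were called higher in Xrn1-AID by edgeR's quasi-likelihood test at an adjusted p under 0.05 (DAL1, DAL2, DAL5, DAL7, GZF3, DUR3 and GAP1), and 16.2% of all tested genes were. At 10 min 6 were called higher (DAL1, DAL2, DAL5, DAL7, GZF3 and GAP1; 17.3% of all), and at 30 min 7 were (DAL2, DAL3, DAL5, DAL7, GZF3, DUR3 and GAP1; 11.5% of all). None was called lower at 0, 10 or 30 min (16.4%, 10.9% and 11.0% of all), and none had an unadjusted p under 0.05 in that direction or was called lower by DESeq2. The median log2 fold change of the 10 was 0.92, 0.77 and 1.06 at 0, 10 and 30 min, beside -0.02, 0.09 and 0.04 for all tested genes. The libraries of the arms did not overlap, with Xrn1-AID higher, for 7, 6 and 8 of the 10 at 0, 10 and 30 min, and for 22.6%, 30.0% and 27.9% of all tested genes. Since these genes were chosen with such values in view, nothing is read from the counts against the background. Without WT 0 min replicate 3 and WT 10 min replicate 2, 8, 7 and 7 genes were called higher, and with libraries scaled by size alone 7, 7 and 5 were.

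GZF3 (YJL110C), which encodes a GATA-family repressor of nitrogen genes, had 103, 102 and 101 CPM in Xrn1-AID before NaCl, against 36.6, 42.8 and 31.9 CPM in Xrn1-WT. After 10 min it had 54.7, 59.2 and 52.8 CPM in Xrn1-AID and 15.8, 9.94 and 20.1 CPM in Xrn1-WT, and after 30 min 46.2 and 66.3 CPM in Xrn1-AID and 18.9, 24.7 and 19.8 CPM in Xrn1-WT. No Xrn1-WT library reached the lowest Xrn1-AID library at any of the 3 times. The log2 fold changes between the arms were 1.46 ± 0.21, 1.85 ± 0.21 and 1.41 ± 0.22 (SE). DAL80 (YKR034W), the other GATA-family repressor, stood at 2.87 ± 0.130, 2.41 ± 0.779 and 5.03 ± 1.06 CPM at 0, 10 and 30 min in Xrn1-AID, while Xrn1-WT had 2.34 ± 0.563, 2.35 ± 0.747 and 3.45 ± 0.0926 CPM. It passed at no time (0.29 ± 0.29, 0.04 ± 0.30 and 0.54 ± 0.31), although at 30 min its libraries did not overlap. The 2 repressors thus stood apart in level and in the size of their fold change; the difference between the genes was not tested.

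DAL7 (YIR031C) encodes a malate synthase that uses the glyoxylate left by allantoin breakdown. It had 96.2, 103 and 95.3 CPM in Xrn1-AID before NaCl, against 33.7, 39.5 and 46.2 CPM in Xrn1-WT. At 30 min it had 83.0 and 92.1 CPM in Xrn1-AID, against 25.6, 31.5 and 20.4 CPM in Xrn1-WT. The groups were apart at these times and at 10 min, where Xrn1-AID averaged 66.3 ± 6.62 CPM and Xrn1-WT 29.6 ± 5.95 CPM. The log2 fold changes were 1.30 ± 0.18, 1.16 ± 0.18 and 1.76 ± 0.19 at 0, 10 and 30 min. MLS1 (YNL117W), the related malate synthase of the glyoxylate cycle, was much rarer, at 2.14 to 10.7 CPM in Xrn1-AID and 1.26 to 4.99 CPM in Xrn1-WT. It did not pass before NaCl (0.28 ± 0.26) and was called higher in Xrn1-AID at 10 min (0.78 ± 0.28) and 30 min (1.02 ± 0.27). The call for MLS1 at 10 min was lost in 20 of 27 alternative fits, 13 of which left out 1 library, and that at 30 min in 2, of which 1 left out AID 30 min replicate 1. How reads that align to both genes were counted is not given in the sources used here, so the split between DAL7 and MLS1 is uncertain.

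The remaining enzymes act in the order DAL1, DAL2, DAL3, which turn allantoin into allantoate, allantoate into ureidoglycolate and ureidoglycolate into glyoxylate and urea. DAL2 (YIR029W) had 28.7, 36.9 and 27.2 CPM in Xrn1-AID before NaCl, against 11.4, 11.5 and 22.9 CPM in Xrn1-WT, the last being WT 0 min replicate 3. The groups did not overlap, and its log2 fold changes of 1.02 ± 0.23, 0.97 ± 0.24 and 1.24 ± 0.25 at 0, 10 and 30 min passed. The call for DAL2 at 0 min was lost in a fit of the 2 groups alone, at 1.01, and at all 3 times with a threshold of 1.5-fold. DAL3 (YIR032C) had 32.6, 38.1 and 32.6 CPM in Xrn1-AID before NaCl, against 17.9, 15.3 and 38.4 CPM in Xrn1-WT, so that WT 0 min replicate 3 lay above every Xrn1-AID library. DAL3 passed only at 30 min (1.55 ± 0.32), where it had 58.1 and 46.5 CPM in Xrn1-AID and 21.5, 16.9 and 15.0 CPM in Xrn1-WT. Before NaCl and at 10 min it had 0.52 ± 0.29 and 0.53 ± 0.29. Without WT 0 min replicate 3 it was called at both times, with 1.05 at 0 min and 0.55 at 10 min.

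DAL1 (YIR027C) was rare, with 2.53 to 4.53 CPM in Xrn1-AID and 0.929 to 4.06 CPM in Xrn1-WT. It was called higher at 0 min (0.83 ± 0.27) and 10 min (1.08 ± 0.30) and not at 30 min (0.13 ± 0.29), where the libraries of the arms overlapped. The call at 0 min was lost when AID 0 min replicate 1, 2 or 3 or WT 0 min replicate 1 was left out, at 0.87, 0.79, 0.82 and 0.56, and the call at 10 min was lost without WT 10 min replicate 2, at 0.97. The call for DAL1 at 0 min was also lost in a fit of the 2 groups alone (0.83) and with libraries scaled by size alone (0.92).

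Of the transporters, DAL5 (YJR152W), which imports allantoate and ureidosuccinate, had 41.5, 31.6 and 30.5 CPM in Xrn1-AID before NaCl, against 14.8, 18.7 and 14.7 CPM in Xrn1-WT. At 10 min it had 16.3, 22.4 and 22.8 CPM in Xrn1-AID, against 6.02, 4.92 and 7.40 CPM in Xrn1-WT. Its libraries were apart at all 3 times, with log2 fold changes of 1.10 ± 0.20, 1.74 ± 0.21 and 1.02 ± 0.22. DUR3 (YHL016C), the urea and polyamine transporter, had 25.1, 21.8 and 21.2 CPM in Xrn1-AID before NaCl, against 9.70, 10.9 and 8.26 CPM in Xrn1-WT, and 46.3 and 42.7 CPM at 30 min in Xrn1-AID, against 20.5, 26.4 and 16.7 CPM in Xrn1-WT. Its arms were apart at 0 min (1.24 ± 0.19) and 30 min (1.07 ± 0.20), but at 10 min they overlapped and the difference did not pass (0.30 ± 0.19). DAL4 (YIR028W), the allantoin permease, had 1.84 to 6.90 CPM in Xrn1-AID and 1.07 to 5.60 CPM in Xrn1-WT, overlapped at all 3 times and did not pass (0.35 ± 0.43, -0.35 ± 0.47 and 0.34 ± 0.47). With libraries scaled by size alone, DAL5 and DUR3 were not called at 30 min, at 0.93 and 0.97.

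GAP1 (YKR039W) was the most abundant of the 10 and had the smallest called difference before NaCl. It had 338, 359 and 301 CPM in Xrn1-AID at 0 min, against 205, 232 and 234 CPM in Xrn1-WT, and 105 and 85.7 CPM at 30 min in Xrn1-AID, against 45.5, 45.5 and 46.5 CPM in Xrn1-WT. The arms did not overlap at any time, and the log2 fold changes were 0.58 ± 0.14, 0.56 ± 0.14 and 1.06 ± 0.16 at 0, 10 and 30 min. The call for GAP1 at 10 min was lost in a fit of the 2 groups alone, at 0.47. With a threshold of 1.5-fold its calls at 0 and 10 min were lost.

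**Figure D2:**
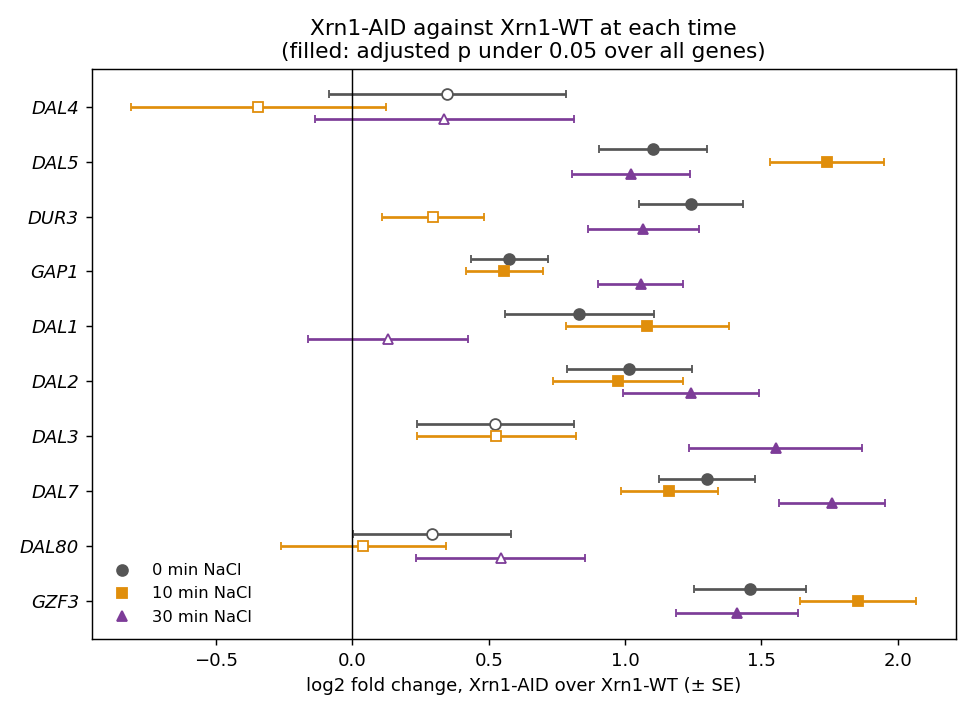
Log2 fold change of Xrn1-AID over Xrn1-WT (x axis, ± SE) for the 10 genes at 0, 10 and 30 min of NaCl, with filled markers where the test passed. GZF3 lies between 1.41 and 1.85 at the 3 times, whereas DAL4 and DAL80 carry open markers at each of them.

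The allantoin cluster was read gene by gene along chromosome IX, because 5 of the 10 genes share it with DCG1 (YIR030C), a gene of uncertain function that belongs to the same regulated group. From DAL1 (406260 to 407642) the order ran DAL4, DAL2, DCG1 (412036 to 412770) and DAL7 to DAL3 (415030 to 415617, RefSeq R64). DCG1 lay in the opposite direction to the genes on either side of it. It had 6.92, 5.65 and 4.38 CPM in Xrn1-AID before NaCl, against 14.6, 11.1 and 18.9 CPM in Xrn1-WT. At 10 min it had 5.06, 5.29 and 5.83 CPM in Xrn1-AID, against 6.94, 7.62 and 7.19 CPM in Xrn1-WT, and at 30 min 12.4 and 8.75 CPM in Xrn1-AID, against 17.5, 19.5 and 19.9 CPM in Xrn1-WT.

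Every Xrn1-AID library thus stood below every Xrn1-WT library of its time for DCG1. By edgeR's quasi-likelihood test with Benjamini-Hochberg adjustment over all tested genes, it was lower in Xrn1-AID at 0 min (log2 fold change -1.39 ± 0.22, adjusted p = 0.000332) and 30 min (-0.85 ± 0.24, adjusted p = 0.0201) and missed the threshold at 10 min (-0.42 ± 0.22, adjusted p = 0.158). In the 27 alternatives its adjusted p at 0 min ran up to 0.0177. At 30 min the call was lost in 3 of them: without AID 30 min replicate 2 (adjusted p = 0.211), without WT 30 min replicate 3, and with a threshold of 1.5-fold (adjusted p = 0.346). The strand setting of the counting is not given in the sources used here, so transcripts of either strand of DCG1 may be in its count. The genes that flank the cluster, YVH1 (a phosphatase gene) and MGA2 (an endoplasmic reticulum transcription factor gene), were not called between the arms at any time, with log2 fold changes of -0.29 ± 0.17 and -0.42 ± 0.18 at 0 min.

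**Figure D3:**
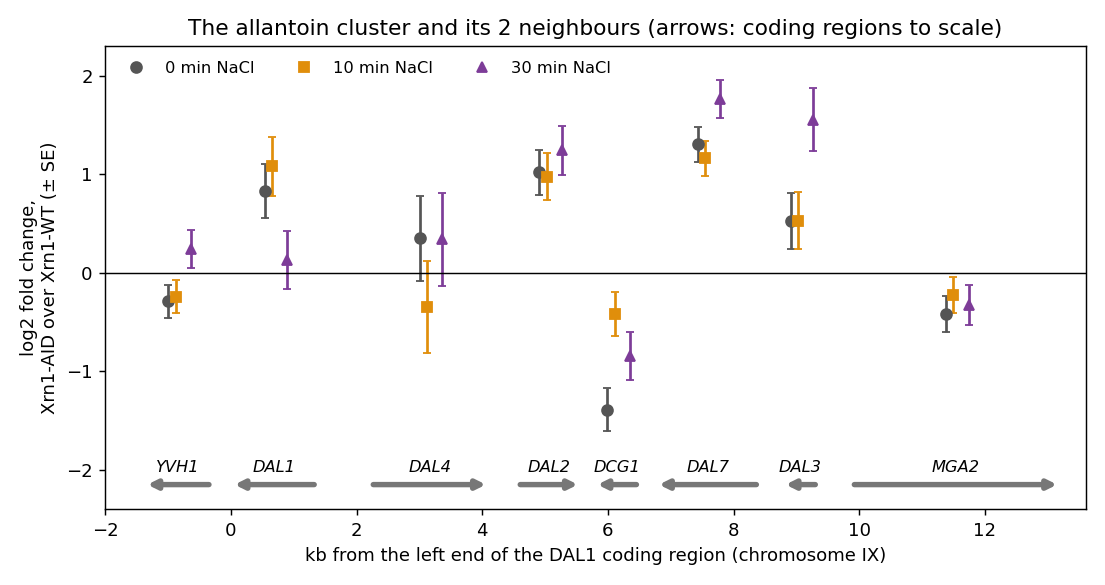
Log2 fold change of Xrn1-AID over Xrn1-WT (± SE) for the genes of the allantoin cluster and a neighbour on each side, at kb from the left end of DAL1, with arrows for the coding regions and their strand. DAL2 and DAL7 lie above 0 at all 3 times, and DCG1 between them lies below 0 at all 3.

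The second comparison followed NaCl within each arm; the changes at 10 and at 30 min share their 0 min libraries. Most of the calls at 10 min of NaCl were for a lower level. In Xrn1-WT the share called lower was near that of all tested genes. Since the 10 were chosen with results of these data in view, nothing is read from the counts. In Xrn1-AID 5 of the 10 were called lower at 10 min (DAL2, DAL5, DAL7, GZF3 and GAP1; 16.6% of all tested genes) and 0 higher (19.0% of all; 0 at an unadjusted p under 0.05 and 0 by DESeq2). In Xrn1-WT 3 were called lower (DAL2, DAL5 and GZF3; 24.6% of all) and 1 higher (DUR3; 19.7% of all). GAP1 (-0.35 ± 0.14) and DAL7 (-0.43 ± 0.18) lay below 0 in Xrn1-WT as well without a call, and the GAP1 libraries did not overlap. GAP1 was called there without some single libraries of other groups, for example at -0.37 without AID 0 min replicate 3. DAL5 fell by 0.75 ± 0.20 on the log2 scale in Xrn1-AID and by 1.39 ± 0.21 in Xrn1-WT, and GZF3 fell by 0.88 ± 0.20 in Xrn1-AID and by 1.27 ± 0.21 in Xrn1-WT. DAL2 fell by 0.99 ± 0.23 in Xrn1-AID and by 0.95 ± 0.24 in Xrn1-WT. Its call in Xrn1-WT was lost in a fit of the 2 groups alone, at -0.89. In Xrn1-AID a threshold of 1.5-fold lost all 5 calls, those for DAL2, DAL5, DAL7, GZF3 and GAP1. In Xrn1-WT it lost the call for DAL2. In these comparisons the call for GAP1 in Xrn1-AID (-0.37 ± 0.14) was lost in most of the fits that left out 1 library, for example at -0.31 without AID 0 min replicate 2. That for DAL7 (-0.56 ± 0.17) was lost without AID 0 min replicate 2 or AID 10 min replicate 2 or 3, at -0.53, -0.57 and -0.49, and left 3 genes called. Without WT 0 min replicate 1, DAL1, DAL7 and GAP1 were also called lower at 10 min in Xrn1-WT, at -0.96, -0.53 and -0.41, which made 7 genes called, and without WT 10 min replicate 3 DAL7 was, at -0.56. Without WT 0 min replicate 3, DAL3 was called higher at 10 min in Xrn1-WT, at 0.60 (0.09 with all libraries). With libraries scaled by size alone, 1 gene was called higher and 6 lower at 10 min in Xrn1-WT, and the median of all tested genes was lower too. The share of all tested genes called with that scaling is not given here, so nothing is read from these 2 counts.

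At 30 min some of the genes were called higher and others lower in each arm. Calls in both directions were also common among all tested genes, as the shares below show. Since the genes were chosen with results of these data in view, nothing is read from the counts. GAP1 fell most, by 1.81 ± 0.17 on the log2 scale in Xrn1-AID and by 2.29 ± 0.15 in Xrn1-WT, to 95.3 ± 13.7 CPM in Xrn1-AID and 45.8 ± 0.573 CPM in Xrn1-WT. DUR3 rose by 0.97 ± 0.20 in Xrn1-AID and by 1.14 ± 0.19 in Xrn1-WT, and GZF3 was below its level at 0 min by 0.86 ± 0.23 in Xrn1-AID and by 0.81 ± 0.21 in Xrn1-WT. In Xrn1-AID the called genes were DUR3 and DAL80 (0.81 ± 0.31) higher (27.2% of all tested genes) and GZF3 and GAP1 lower (26.6%). The call for DAL80 was lost without AID 0 min replicate 1, 2 or 3 or AID 30 min replicate 2, at 0.81, 0.78, 0.86 and 0.57. In Xrn1-WT DUR3 and DAL1 (0.92 ± 0.27) were called higher (29.1%) and DAL7 (-0.62 ± 0.18), GZF3 and GAP1 lower (27.5%). The call for GZF3 in Xrn1-AID was lost without AID 30 min replicate 1, at -0.62. The split at 30 min depended on the scaling. With libraries scaled by size alone, the median of all tested genes stood at 0.29 in Xrn1-AID and 0.43 in Xrn1-WT, and the call for GZF3 was lost in both arms, at -0.56 and -0.40. Then 4 genes were called higher and 1 lower in Xrn1-AID, with DAL2 and DAL3 added; DAL3 was also called there without WT 0 min replicate 3, at 0.62 (0.60 with all libraries). In Xrn1-WT 5 were called higher and 1 lower, with DAL2, DAL4 and DAL80 added and DAL7 lost, at -0.16. The share of all tested genes called with that scaling is not given here, so these counts are a description only. The call for DAL1 in Xrn1-WT was lost in a fit of the 2 groups alone, at 0.92, and DAL2 was called higher in Xrn1-WT without WT 0 min replicate 3, at 0.47 (0.04 with all libraries).

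Between 10 and 30 min DAL2, which had fallen in both arms, rose again. It rose by 1.26 ± 0.25 in Xrn1-AID and by 0.99 ± 0.24 in Xrn1-WT. In Xrn1-AID it had 39.0 and 35.4 CPM at 30 min and 16.5, 14.2 and 15.8 CPM at 10 min, and in Xrn1-WT 16.0, 16.7 and 14.5 CPM at 30 min and 7.22, 9.29 and 7.26 CPM at 10 min, with no overlap between the times. In all, 4 genes were called higher at 30 than at 10 min in Xrn1-AID (DAL2, DAL4, DAL80 and DUR3; 19.8% of all tested genes), with 1 lower (GAP1; 22.1%). In Xrn1-WT 3 were called higher (DAL1, DAL2 and DAL5; 30.6%) and 1 lower (GAP1; 25.7%). In Xrn1-AID the call for DAL4 (1.35 with all libraries) was lost without AID 10 min replicate 1, 2 or 3 or AID 30 min replicate 1, at 1.40, 1.28, 1.36 and 0.80, and with either replicate block. The call for DAL80 was lost without AID 10 min replicate 2 or 3 or AID 30 min replicate 2, at 0.92, 0.95 and 0.82, and that for DUR3 without AID 10 min replicate 2 or AID 30 min replicate 1, at 0.61 in each. In Xrn1-WT DAL4 was called higher without WT 10 min replicate 2, at 1.40 (0.66 with all libraries), and GZF3 without WT 0 min replicate 3 or WT 10 min replicate 3, at 0.49 and 0.71 (0.46 with all), while DAL3 was called lower without WT 0 min replicate 3, at -0.49 (-0.52 with all). With libraries scaled by size alone, 8 genes were called higher and 1 lower in each arm, and the median of all tested genes was higher too. The share of all tested genes called under that scaling is not given here, so nothing is read from these counts. The count of 5 in Xrn1-AID moved to 2 without AID 10 min replicate 2, to 3 without AID 10 min replicate 3 or AID 30 min replicate 1, and to 8 without WT 0 min replicate 3 and WT 10 min replicate 2.

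**Figure D4:**
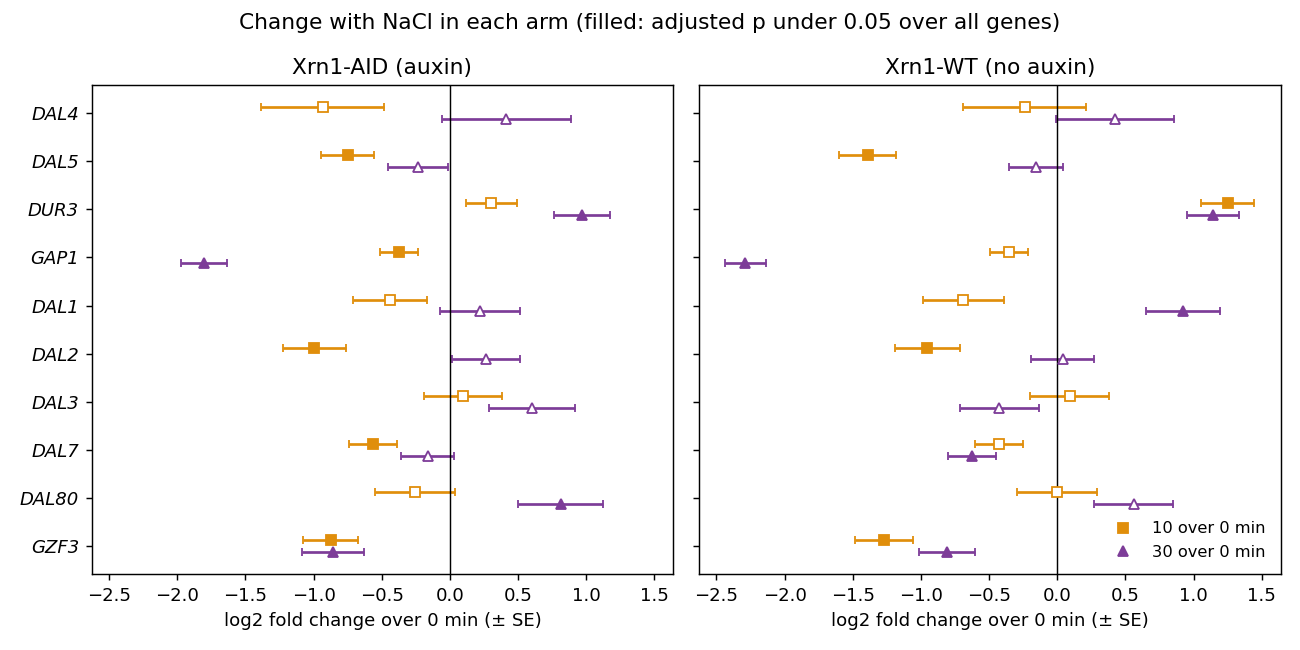
Log2 fold change over 0 min (x axis, ± SE) of the 10 genes at 10 and 30 min of NaCl, with Xrn1-AID in the left panel and Xrn1-WT in the right panel and filled markers where the test passed. GAP1 at 30 min stands farthest to the left in both panels (-1.81 and -2.29), and DUR3 lies right of 0 at both times in both.

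Whether the NaCl response itself differed between the arms was tested as the difference of the log2 fold changes. In edgeR's quasi-likelihood test 0 of the 10 genes passed for the 10 min response (0.291% of all tested genes higher and 0.484% lower), the 30 min response (1.00% and 0.549%) or the step from 10 to 30 min (0.646% and 0.726%). At an unadjusted p under 0.05 there were 1 higher and 1 lower for the 10 min response, 2 higher for the 30 min response, and 4 higher and 2 lower for the step. The share of all tested genes at that unadjusted threshold was not counted, so nothing is read from these counts. DESeq2's Wald test called DUR3 for the 10 min response, with a difference of -1.01, and for the step, with 0.85, and 0 of the 10 for the 30 min response. In the edgeR fit these differences were -0.95 ± 0.27 and 0.77 ± 0.28. At 10 min DUR3 stood at 28.2, 25.8 and 30.3 CPM in Xrn1-AID (0.30 ± 0.19 over 0 min, not called) and at 26.0, 16.99 and 25.5 CPM in Xrn1-WT, where it rose by 1.25 ± 0.19.

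The likeness of profiles was described by Pearson's r of log2 CPM over the 17 libraries, which share depth, arm and NaCl time and so are not independent points. Within the 10 genes it was highest for GZF3 with DAL7 (0.92) and with DAL5 (0.91), followed by DAL2 with DAL5 (0.85). It was lowest for GAP1 with DAL80 (-0.50), DAL4 (-0.32) and DAL1 (-0.30). Of the other tested genes, AAD4 (r = 0.97), YKE4 (0.97), YIL165C (0.97), FLO9 (0.96) and DDI2 (0.96) came closest to the mean profile of DAL1, DAL2, DAL3, DAL4 and DAL7. AAD4, FLO9 and DDI2 have close relatives in the genome, so their counts are uncertain. FAA4 (0.98), LYS12 (0.98), LEU9 (0.97), UTP5 (0.97) and ALD5 (0.97) came closest to GAP1.

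Other genes of nitrogen use were read from lists of regulators, transporters, enzymes and amino acid permeases under the SPS sensor, a plasma membrane sensor of external amino acids. The median log2 fold change between the arms before NaCl was 0.28 for the 12 regulators, 0.53 for the 8 transporters, 0.37 for the 13 enzymes and 0.41 for the 6 permeases, beside -0.02 for all tested genes. In the same order the medians were 0.43, 0.05, 0.18 and 0.12 at 10 min, beside 0.09 for all tested genes. They were 0.06, 0.24, 0.29 and -0.20 at 30 min, beside 0.04. Before NaCl 4 regulators, 3 transporters, 4 enzymes and 3 permeases were called higher in Xrn1-AID (16.2% of all tested genes), and of the 4 lists DCG1 alone was called lower (16.4%). At 10 min 2, 1, 3 and 0 were called higher (17.3% of all) and none lower (10.9%). At 30 min 2, 2, 5 and 0 were called higher (11.5%) and 1, 0, 1 and 1 lower (11.0%). Those lower were the regulator gene TAP42 (-0.41 ± 0.14), DCG1 and the permease gene TAT1 (-0.61 ± 0.18). The call for TAP42 was lost in 15 of 27 alternative fits and that for TAT1 in 6.

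Among the regulators, DAL82, an activator of the allantoin genes, was higher in Xrn1-AID at 0, 10 and 30 min (0.81 ± 0.14, 0.90 ± 0.14 and 0.73 ± 0.15; adjusted p = 0.00066, 6e-04 and 0.00402 by edgeR). It had 26.3, 25.0 and 22.5 CPM in Xrn1-AID before NaCl, against 13.9, 13.8 and 14.4 CPM in Xrn1-WT, with no overlap. GAT1, the GATA-family activator, was higher at 0 min (0.75 ± 0.16, adjusted p = 0.00252 by edgeR). SIT4, a phosphatase that acts on Gln3, was higher at 0 min (1.37 ± 0.29, adjusted p = 0.00281 by edgeR) and at 30 min (1.08 ± 0.32, adjusted p = 0.024). NPR2, a subunit of a complex that restrains TORC1, was higher at 10 min (0.77 ± 0.14, adjusted p = 0.00141 by edgeR). GLN3, the other GATA-family activator, and URE2 were called between the arms at no time.

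Of the transporters, CAN1, the arginine permease, for which the strain carries the can1-100 allele, had 169, 104 and 116 CPM in Xrn1-AID before NaCl, against 34.7, 49.4 and 21.9 CPM in Xrn1-WT (1.87 ± 0.26, adjusted p = 0.000133 by edgeR). The ammonium permease gene MEP2 had 129, 122 and 115 CPM in Xrn1-AID, against 57.7, 60.8 and 70.6 CPM in Xrn1-WT (0.95 ± 0.14, adjusted p = 0.000193 by edgeR), and MEP1, another one, was also higher (0.78 ± 0.19, adjusted p = 0.00567). Neither CAN1 nor MEP2 overlapped between the arms at 0 min. Of the enzymes, GDH2, which releases ammonia from glutamate (0.99 ± 0.20, adjusted p = 0.00208 by edgeR), and DUR1,2, the urea amidolyase (0.89 ± 0.18, adjusted p = 0.00197), were higher before NaCl. At 30 min PUT1, the first enzyme of proline breakdown (1.23 ± 0.24, adjusted p = 0.00254 by edgeR), GLN1, glutamine synthetase (1.22 ± 0.27, adjusted p = 0.00486), and GLT1, glutamate synthase (0.86 ± 0.20, adjusted p = 0.00673), were higher. At 30 min SIT4, DAL82 and GLN1 each lost the call in at least 1 of the fits that left out 1 library, with an adjusted p of up to 0.155, 0.0909 and 0.0657 by edgeR, in each case without AID 30 min replicate 2. SIT4 lost it also without WT 30 min replicate 2 or 3, and with libraries scaled by size alone SIT4, DAL82 and GLT1 were not called at 30 min.

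The largest responses to NaCl in these lists were in genes outside the 10. PUT4, the proline permease, had 2558, 2493 and 2559.9 CPM in Xrn1-AID at 10 min, against 37.7, 49.8 and 53.5 CPM at 0 min, a log2 fold change of 5.75 ± 0.36 (adjusted p = 3.73e-09 by edgeR). In Xrn1-WT PUT4 rose by 6.11 ± 0.37 (adjusted p = 2.92e-09 by edgeR), to 2585, 3375 and 2276 CPM. MEP1 rose by 2.96 ± 0.20 in Xrn1-AID and by 3.70 ± 0.20 in Xrn1-WT at 10 min (adjusted p = 6.63e-09 and 1.12e-09 by edgeR). At 30 min UGA2, of 4-aminobutyrate breakdown, was up by 2.60 ± 0.17 in Xrn1-AID and by 2.92 ± 0.16 in Xrn1-WT (adjusted p = 3.88e-09 and 3.02e-10 by edgeR). GLN1, GLT1 and GDH1, which assimilate ammonium, fell at 30 min by 1.33 ± 0.28, 1.31 ± 0.21 and 1.45 ± 0.23 in Xrn1-AID and by 2.18 ± 0.25, 1.93 ± 0.19 and 1.54 ± 0.20 in Xrn1-WT. TAT1, an amino acid permease, fell by 2.46 ± 0.20 in Xrn1-AID and by 1.58 ± 0.16 in Xrn1-WT at 30 min.

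**Figure D5:**
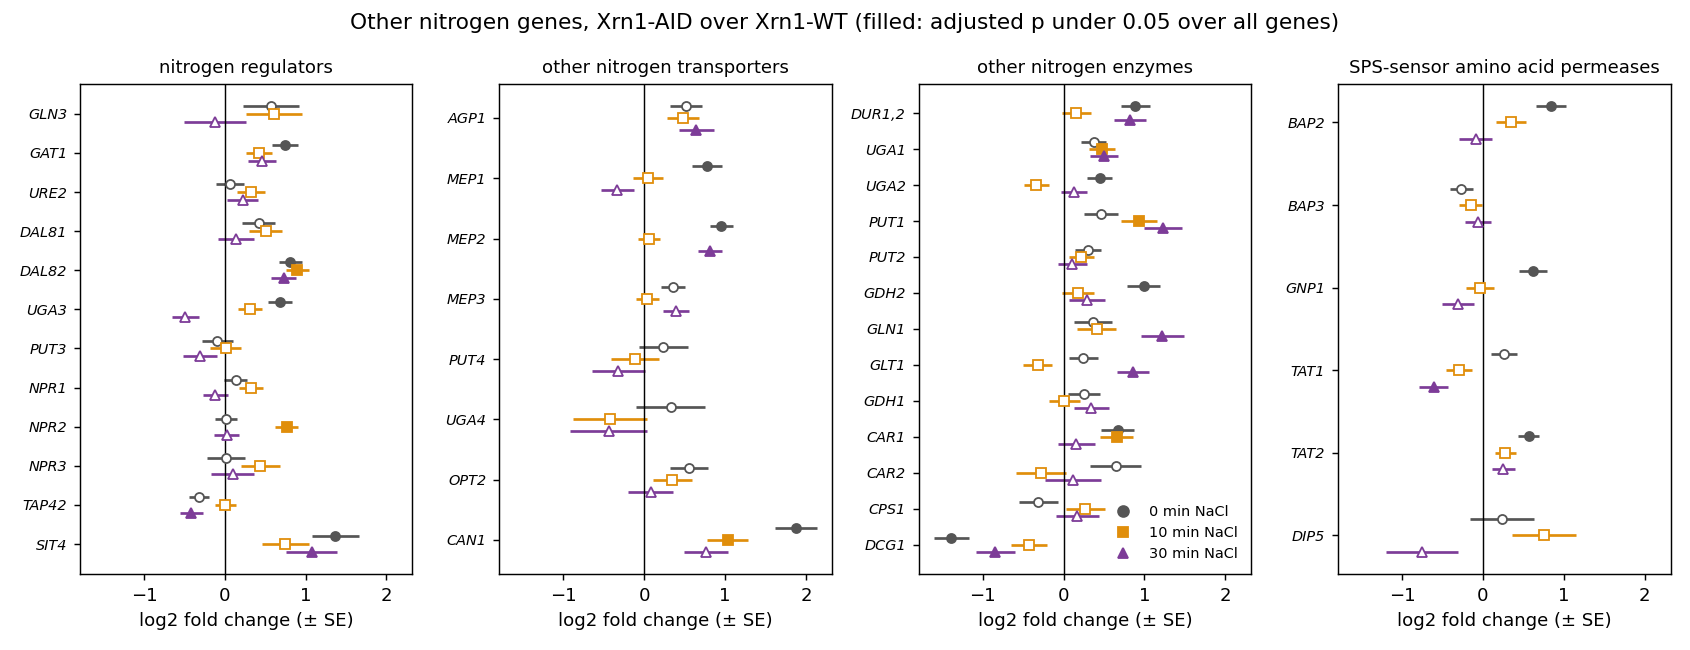
Log2 fold change of Xrn1-AID over Xrn1-WT (x axis, ± SE) at 0, 10 and 30 min for the other nitrogen genes in 4 lists, with filled markers where the test passed. DAL82 carries filled markers at the 3 times, and DCG1 stands at the left with -1.39 at 0 min.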

How the data were processed

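The authors deposited raw read counts per gene for 17 mRNA libraries, which were used as given. Per the labels, libraries were made with a stranded mRNA kit and read once over 50 bases. Per the submitters' processing notes, the tools named are featureCounts 1.5.1, TopHat2 2.1.0 and DESeq2 1.22.2, with the build sacCer3. The strand setting and the treatment of reads with several alignments are not given in the sources used here.

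Samples were grouped by arm and NaCl time from their titles. edgeR 4.0.16 (R 4.3.3, limma 3.58.1) was run on all libraries together: filterByExpr left 6195 of 7126 features, TMM scaled the libraries, and a robust quasi-likelihood fit held 6 group means. Each of the 12 contrasts was adjusted by Benjamini-Hochberg over all tested genes and called at an adjusted p under 0.05. A standard error is the log2 fold change divided by the square root of F. CPM and CPM per kb were computed here from the counts. The procedure was tested on simulated data.

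The 10 genes, the lists of nitrogen genes and the tests were chosen with earlier results of these data known. Named beside the 10 are DCG1, the flanking genes, XRN1, MLS1, examples from up to 3 called genes per direction with the largest change in each list and comparison, and the 5 genes most alike to the cluster mean and to GAP1. Genes named for having no call (GLN3, URE2) were chosen after their values were seen. Promoter windows were read from the RefSeq R64 genome, whose locus tags matched 6048 features. An alignment of related proteins was planned and not run, since no protein table was at hand. Alternatives were other scalings and filters, DESeq2 1.42.0, replicate blocks, the compared groups alone, a 1.5-fold threshold and leaving out each library. One that left out WT 0 min replicate 3 and WT 10 min replicate 2 was chosen after seeing the data. No libraries of a group agreed within sampling noise (chi-square per degree of freedom 12.2 to 477).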

Additional observations from a re-analysis of the deposited data

Results flagged for a closer look

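In the lists beside the 10 genes, 3 genes passed edgeR's quasi-likelihood test of the difference between the arms' NaCl responses. For MEP2, an ammonium permease gene, the 10 min response in Xrn1-AID differed from that in Xrn1-WT by -0.89 ± 0.20 on the log2 scale (adjusted p = 0.045 by edgeR). It had 48.3, 49.9 and 44.7 CPM in Xrn1-AID at 10 min and 50.4, 45.7 and 40.9 CPM in Xrn1-WT at 10 min, where the arms overlapped. At 0 min MEP2 averaged 122 ± 7.30 CPM in Xrn1-AID and 63.0 ± 6.73 CPM in Xrn1-WT. For UGA3, an activator of the 4-aminobutyrate genes, the 30 min response differed by -1.17 ± 0.23 (adjusted p = 0.0236 by edgeR), with 5.99 and 7.22 CPM in Xrn1-AID and 10.1, 8.58 and 9.14 CPM in Xrn1-WT at 30 min. At 0 min UGA3 averaged 36.4 ± 4.03 CPM in Xrn1-AID and 22.7 ± 3.11 CPM in Xrn1-WT, so the arms stood apart before NaCl too. For GLT1, glutamate synthase, the step from 10 to 30 min was higher by 1.18 ± 0.27 (adjusted p = 0.0433 by edgeR), with 85.8 and 83.3 CPM in Xrn1-AID and 44.7, 47.9 and 47.1 CPM in Xrn1-WT at 30 min. At 10 min GLT1 averaged 194 ± 20.7 CPM in Xrn1-AID and 242 ± 29.2 CPM in Xrn1-WT. None of these 3 calls held in all 27 alternatives: MEP2's was lost in 18 (12 of them leaving out 1 library), UGA3's in 10 (5 leaving out 1 library) and GLT1's in 16 (11 leaving out 1 library). Leaving out 1 library gave an adjusted p by edgeR of up to 0.129, 0.154 and 0.202.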

How the results depend on the processing

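No called change of the 10 genes and no called change recomputed for other genes turned its sign in the 27 alternatives. Changes without a call could turn sign. With libraries scaled by size alone, DAL7 and DUR3 were called higher at 30 than at 10 min in Xrn1-WT, at 0.65 and 0.74. With TMM they lay at -0.20 and -0.11 there, without a call. Of 2646 values of the other genes, 2443 kept their call. Many of these alternatives left out a library outside the groups compared, so keeping a call there was a weak check. With library size alone, 9 genes were called for 30 against 10 min in Xrn1-AID, 7 for 10 against 0 min in Xrn1-WT and 9 for 30 against 10 min in Xrn1-WT; the median of all genes then stood at 0.62, -0.50 and 0.94 in these, against 0.01, -0.06 and 0.08. A threshold of 1.5-fold asks for a larger change by its construction. With it, 4, 3 and 4 genes were called between the arms at 0, 10 and 30 min. DAL1, DAL2 and GAP1 lost the call at 0 and 10 min, and DAL2, DAL5 and DUR3 lost it at 30 min. In Xrn1-AID 0 were called for 10 against 0 min. There 2 were called for 30 against 0 min, without DAL80 and GZF3, and 2 for 30 against 10 min, without DAL4, DAL80 and DUR3. In Xrn1-WT 2 were called for 30 against 0 min, without DAL1, DAL7 and GZF3. DESeq2 called 1 gene, DUR3, for the difference of the 10 min responses and 1, again DUR3, for that of the steps; the cause was not tested. Without the 2 libraries farthest from their group, 8 genes were called for 30 against 10 min in Xrn1-AID.

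Leaving out 1 library at a time gave 6 to 8, 5 to 7 and 7 to 7 called genes between the arms at 0, 10 and 30 min. In Xrn1-AID it gave 3 to 5 (10 against 0 min), 3 to 5 (30 against 0 min) and 2 to 6 (30 against 10 min), and in Xrn1-WT 4 to 7, 5 to 6 and 4 to 6. For the differences of the responses it gave 0 to 0 in each of the 3. Where Xrn1-AID at 30 min was left with 1 library, that library was taken to vary like the other groups.

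The replicate numbers did not pair the samples: 11 of 40 pairs of same-numbered libraries had a correlation of deviations over 0.1, from -0.74 to 0.64 with the titles' numbers, and 1 of 17 libraries correlated best with its own number. With either replicate block 7, 6 and 7 genes were called between the arms, and 4, 3 and 4 within Xrn1-AID, without GAP1 (10 against 0 min), DAL80 (30 against 0 min) and DAL4 (30 against 10 min); no other call of the 10 changed. Depth limits DAL1, DAL4 and DAL80 most, the rarest of the 10 at 0 min.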
